A study of Mus musculus with 2 samples.

Results

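The genes described here are Trem2 and 9 genes that are commonly expressed with it in lipid-associated macrophages, namely Tyrobp, Apoe, Lpl, Fabp4, Fabp5, Spp1, Gpnmb, Cd9 and Lgals3. They were chosen by name with earlier results of these data known, so counts among them are descriptive only. Their probes were found through the RefSeq transcript that the array design gives for each probe. All 10 genes had a probe, 11 probes in all, among 20653 genes that could be named on the array. The RNA came from monocytic myeloid-derived suppressor cells (M-MDSCs) isolated from 4T1 tumours of female BABL/c mice, 4T1 being a mouse mammary carcinoma line that was injected under the skin at 1000000 cells per mouse. After injection the mice received either the normal-salt diet (NSD), whose chow held 0.4% NaCl and which came with tap water, or the high-salt diet (HSD), whose chow held 4% NaCl and whose drinking water held 1%, and the diets lasted 16 days. The cells were selected on magnetic columns after staining for Gr-1 or Ly-6G, equal numbers from the mice of a diet were mixed, and 1 array per diet was hybridised with Cy3-labelled RNA. The mice of a diet therefore contribute a single value per probe, so no spread between mice, no p-value and no test of the diet can be given.

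TREM2 is a surface receptor of macrophages that binds lipids, lipoproteins and dying cells, and it has no signalling tail of its own. It signals through the adaptor TYROBP (DAP12), which recruits the kinase SYK. Macrophages that take up large amounts of lipid, in adipose tissue, in atherosclerotic plaques and in tumours, are known for high levels of TREM2 together with genes that carry, split and bind lipids.

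On the array each value is a processed signal, an intensity from which the scanner software had removed the background. Signals were taken to the log2 scale and the 75th percentile of each array, 252 intensity units for NSD and 233 for HSD, was subtracted before the groups were compared. The log2 fold change is given as HSD minus NSD, and a gene was called higher or lower when it differed by at least 1.5-fold. On both arrays all 11 member probes were marked as well above background, and none was saturated. The scanner software gave each of their signals an error of 10.0% to 10.1%, which amounts to 0.20 to 0.21 on a log2 fold change and covers the measurement on the array only. Brightness depends on the probe as well as on the transcript, so signals are compared between diets and not between genes.

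Of the 10 genes, 6 were at least 1.5-fold lower with HSD (Trem2, Apoe, Lpl, Fabp4, Fabp5 and Gpnmb), 2 were at least 1.5-fold higher (Spp1 and Cd9), and Tyrobp and Lgals3 stayed within 1.5-fold. Over all 16312 genes with a usable value, 10.3% were lower and 9.86% were higher by the same rule. The median log2 fold change was −0.88 over the 10 genes and 0.045 over all genes. Less of a transcript in RNA from a mixture of cells can come from fewer cells that make it or from less RNA per cell, and these cannot be told apart here.

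**Figure D1:**
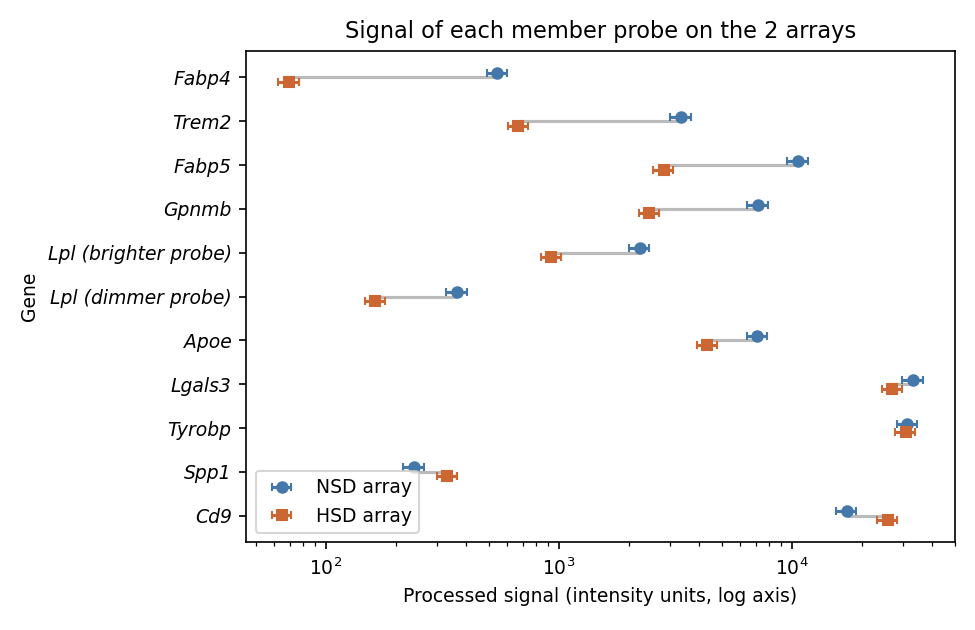
Processed signal (intensity units, log axis) of the 11 member probes for NSD (circles) and HSD (squares), ordered by fold change, with the scanner software's error as bars. Fabp4, Trem2, Fabp5, Gpnmb, both Lpl probes and Apoe lie lower in the HSD group, with Fabp4 falling from 543 to 69.6, while the symbols of Tyrobp nearly coincide.

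The receptor was called lower and its adaptor was not. Trem2 read 3348 units with NSD and 669 with HSD, which is a log2 fold change of −2.21 ± 0.20 (software error), or 4.62-fold lower. Among the 15209 genes measured on both arrays, ranked from the largest fall, Trem2 took rank 88. Tyrobp, the adaptor that TREM2 shares with many other myeloid receptors, read 31358 units with NSD and 30768 with HSD. Its log2 fold change was 0.087 ± 0.20, smaller than its error, and lay between −0.054 and 0.099 under the other ways of processing.

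The genes of lipoprotein handling were lower to a smaller degree. Lpl encodes lipoprotein lipase, which splits the triglycerides of lipoproteins so that fatty acids can enter the cell. Its brighter probe fell from 2226 to 927 units, for a log2 fold change of −1.15 ± 0.20, and its other probe fell from 365 to 163, a log2 fold change of −1.05 ± 0.20. The 2 Lpl probes thus differed by 0.099 on the log2 scale. Apoe encodes the apolipoprotein with which macrophages release cholesterol. It was printed in 10 spots on each array, of which 8 for NSD and 9 for HSD were not marked as outliers. In the NSD group these spots ran from 7022 to 7413 intensity units, with a median of 7067. In the HSD group they ran from 4144 to 4510, with a median of 4328. With the outlier spots included, the range was 6715 to 7413 for NSD and 3874 to 4510 for HSD. These are unscaled signals of repeat spots on 1 array per diet, so their spread holds no difference between mice. The SD between spots was 0.026 for NSD and 0.037 for HSD on the log2 scale. The log2 fold change of Apoe was −0.60 ± 0.20 (software error), or 1.52-fold lower, just past the threshold. With the normexp background correction it was −0.58 and no longer reached 1.5-fold.

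The fatty acid binding proteins, small carriers that keep fatty acids soluble in the cytoplasm, included the largest fall of the group. Fabp4, the form known from adipocytes and macrophages, read 543 units with NSD and 69.6 with HSD. The log2 fold change was −2.85 ± 0.21, or 7.21-fold lower, which placed Fabp4 at rank 33 of the 15209 genes. With the normexp correction, which adds an offset of 50 intensity units, it was −2.16. Fabp5, the epidermal form that macrophages also express, fell from 10623 to 2815 units, for a log2 fold change of −1.80 ± 0.20 and rank 136. RefSeq also lists a pseudogene of this gene, Fabp5l2, so the signal of Fabp5 may include RNA from a near-identical copy.

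The secreted and surface proteins of the group differed in direction. Gpnmb, a membrane glycoprotein of lysosomes and the cell surface, fell from 7167 to 2444 units, for a log2 fold change of −1.44 ± 0.20 and rank 235. Lgals3 encodes galectin-3, a sugar-binding protein also known as Mac-2. It read 33079 units with NSD and 26977 with HSD, for a log2 fold change of −0.18 ± 0.20. Cd9, a tetraspanin that organises membrane proteins, was higher with HSD, at 25761 against 17217 intensity units. Its log2 fold change was 0.70 ± 0.20, or 1.62-fold higher. It was 0.58 without scaling between the arrays and 0.56 with cyclic loess, both below 1.5-fold. Spp1 encodes osteopontin, a secreted glycoprotein. It read 239 units with NSD and 332 with HSD, for a log2 fold change of 0.59 ± 0.20, or 1.51-fold higher. Under 4 of 10 other ways of processing Spp1 stayed below 1.5-fold, with values down to 0.48, so its call rests on the processing.

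**Figure D2:**
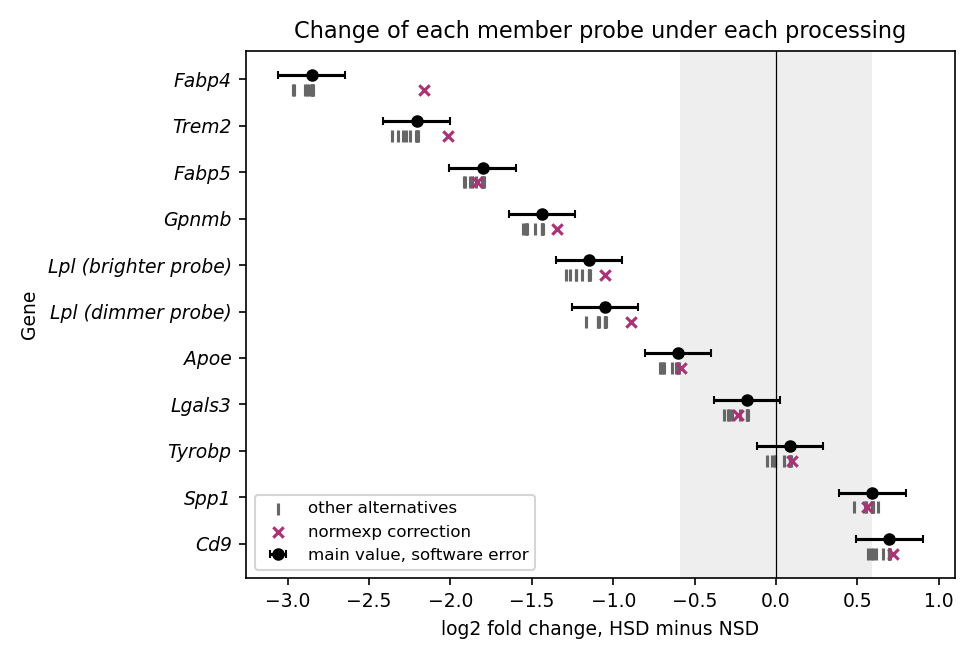
log2 fold change (HSD minus NSD) of each member probe, with the scanner software's error (circles and bars), beneath it the values under the alternative settings (ticks) and with the normexp background correction (crosses). The grey band marks changes below 1.5-fold, and Trem2, Fabp4, Fabp5, Gpnmb and both Lpl probes lie outside it under every setting, while Apoe, Spp1 and Cd9 lie near its edges.

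Since 10 of the 11 probes were printed once, the noise of a single spot was read from probes printed several times. The array held 174 probes with at least 5 usable spots whose signals were all at or above 69.6 intensity units, the lowest of the members. Between spots of such a probe the log2 fold change had a median SD of 0.068 and a largest SD of 0.59. Over their 1629 spots, 99% of the deviations from the probe's mean were below 0.31 and the largest was 1.62. The falls of Fabp4, Trem2 and Fabp5 were larger than that deviation. The changes of Gpnmb, Lpl, Apoe, Cd9 and Spp1 lay between 0.31 and it, and those of Tyrobp and Lgals3 were below 0.31. These deviations cover the scatter between spots of the same 2 arrays only. They hold no difference between mice, cell pools or hybridisations, so they are no measure of noise for the diets. The value of Apoe is a mean over several spots, unlike the single-spot deviations. Counted by probe, 7 of the 11 member probes were lower and 2 higher, against 8.92% lower and 10.2% higher over 29599 probes.

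**Figure D3:**
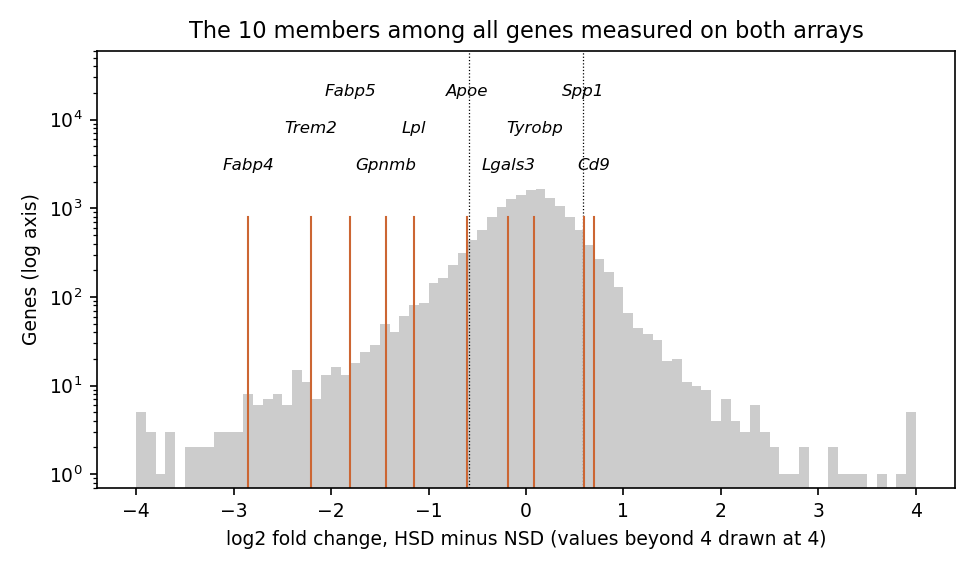
Number of genes (log axis) per log2 fold change (HSD minus NSD, steps of 0.1) for the 15209 genes measured on both arrays, with the 10 members as vertical lines and 1.5-fold as dotted lines. Fabp4 at −2.85, Trem2 at −2.21 and Fabp5 at −1.80 lie in the sparse left tail, and Lgals3 and Tyrobp lie near the peak.

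Promoter sequences are shown for Trem2 and Gpnmb, the genes with the largest falls among those with an entry in the RefSeq promoter table (GRCm38.p6). Each is given 5′ to 3′ as the 250 bases before the gene's start, on the plus strand at chr17:48346151-48346400 and chr6:49036268-49036517. Capitals mark 4 motifs that were searched on both strands, namely the E-box CACGTG known from MITF and TFEB, the core GAGGAA known from the myeloid factor PU.1, the nuclear receptor half-site AGGTCA and the core TGGAAA known from NFAT factors including NFAT5.
Trem2: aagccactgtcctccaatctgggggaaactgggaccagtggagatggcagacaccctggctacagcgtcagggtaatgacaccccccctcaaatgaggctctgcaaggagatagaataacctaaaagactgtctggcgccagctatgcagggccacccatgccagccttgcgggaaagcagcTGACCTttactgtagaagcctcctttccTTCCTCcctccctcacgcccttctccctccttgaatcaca
Gpnmb: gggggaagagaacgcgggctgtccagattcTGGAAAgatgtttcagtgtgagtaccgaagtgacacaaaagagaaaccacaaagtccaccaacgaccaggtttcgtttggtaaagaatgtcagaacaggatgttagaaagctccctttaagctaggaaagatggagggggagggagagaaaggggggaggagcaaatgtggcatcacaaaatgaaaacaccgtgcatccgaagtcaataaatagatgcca
The 250 bases of Trem2 held a PU.1 core and a half-site, both on the other strand, and those of Gpnmb held an NFAT core. Entries of 300 bases, up to base 50 of the transcript, existed for 6 members (Trem2, Apoe, Spp1, Gpnmb, Cd9 and Lgals3), 9 entries in all since Apoe and Spp1 have several, of which some Apoe entries overlap. The E-box was in 0 of the 9 entries, the PU.1 core in 4, the half-site in 1 and the NFAT core in 5. Over all 32851 entries these shares were 7.15%, 28.3%, 16.3% and 21.4%. Every entry of Apoe held the NFAT core and some held the PU.1 core, so the 9 entries are not independent and do not count genes. The motifs were chosen after the values of the members had been seen, and a match of letters is a description of the sequence and not a binding site.

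Genes around the members were followed with lists of their pathways, which held 113 genes, 105 of them with a usable value. Of these, 26 were lower (24.8%) and 12 higher (11.4%) with HSD, against 10.3% and 9.86% of all genes, and their median log2 fold change was 0.030. The pathway lists, and the marker lists below, were also chosen with earlier results of these data known. Their counts are therefore descriptive only. The falls were spread unevenly over the lists, as follows.

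The next list followed the signal downstream of the receptor. Of 14 genes of TREM2 and TYROBP signalling and shedding, 2 were lower and 1 was higher, with a median of 0.18, and these counts are near what the shares over all genes, 10.3% and 9.86%, would give. Syk, the kinase that TYROBP recruits, had a log2 fold change of 0.33, and Plcg2, a phospholipase that acts after it, had 0.18. Hcst, which encodes the related adaptor DAP10, had −0.17, and the sheddase genes Adam10 and Adam17 had −0.079 and 0.47. The higher gene was Btk, a kinase, at 0.82. The lower genes encode membrane proteins of the MS4A family, with Ms4a7 falling from 1535 to 272 intensity units (log2 fold change −2.38) and Ms4a6d from 1908 to 748 (−1.24).

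Most receptors related to TREM2 were within 1.5-fold. Of 11 TREM family and other TYROBP-coupled receptors with a value, 1 was lower and 3 were higher, with a median of 0.25. Trem1, a receptor that amplifies inflammation in myeloid cells, read 2021 units with NSD and 2044 with HSD, a log2 fold change of 0.13. The log2 fold change was 0.29 for Trem3, 0.79 for Treml4, 0.73 for Clec5a and 0.85 for Pilrb1. Treml1, a gene of platelets, was at −0.69. On neither array was Klrk1 well above background.

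Other genes known from lipid-associated macrophages were divided. Of 18 with a value, 4 were lower and 2 higher, with a median of 0.022. Igf1, a growth factor of macrophages and other tissues, fell from 467 to 51.2 units, for a log2 fold change of −3.07. Of its other 3 probes, values of −3.36 and −2.96 were like it and −0.17 was not. The protease gene Ctsl fell from 16372 to 5453 (−1.47), the proton pump subunit gene Atp6v0d2 from 82.6 to 28.2 (−1.44) and the chemokine gene Ccl6 from 5167 to 2683 (−0.83). Itgax, the gene of CD11c, was higher at 0.74, as was the cholesterol hydroxylase gene Ch25h at 0.69. Other lysosomal genes of the same list were within 1.5-fold, with 0.046 for Ctsd, −0.0030 for Ctsb and 0.066 for Cd63.

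Lipoprotein handling and cholesterol efflux held the most falls. Of 21 genes with a value, 9 were lower and 1 was higher, with a median of −0.29. Nceh1, a cholesterol ester hydrolase of macrophages, fell from 1301 to 232 intensity units (−2.37). Nr1h3, which encodes the oxysterol receptor LXRα, fell from 525 to 152 (−1.68, and −1.50 with its other probe), whereas Nr1h2, which encodes LXRβ, had 0.27. Of the genes that LXR is known to induce, Apoc1 had −1.31, Pltp −1.24 and the cholesterol exporter Abcg1 −1.03, from 1067 to 483 units. Abca1, another cholesterol exporter, had −0.21 and Mylip −0.57, both within 1.5-fold. The higher gene was Angptl4, an inhibitor of lipoprotein lipase, which rose from 65.0 to 170.6 intensity units (1.51). Gpihbp1 and Lmf1, which are needed for the transport and folding of the lipase, had 0.025 and −0.69, the other probe of Lmf1 having −0.08. Vldlr was counted as lower at −0.93, but its other probe was past 1.5-fold in the opposite direction at 0.79. Conversely, Rxra was within 1.5-fold at −0.13, and its other probe had −1.14.

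Genes of fatty acid uptake and storage moved in both directions. Of 20 genes, 3 were lower and 5 were higher, with a median of 0.22. The lower genes were the scavenger receptors Cd36, from 334 to 97.6 intensity units (−1.66), and Msr1, from 742 to 210.4 (−1.70, and −1.74 with its other probe), and Pparg, the nuclear receptor that is known to induce Fabp4 and Cd36, from 86.5 to 23.5 (−1.76). The higher genes were Abhd5 at 0.87, Ppard at 0.83, Dgat1 at 0.71, Dgat2 at 0.70 and Cpt1a at 0.60, which serve the storage, release and oxidation of fatty acids. A second probe of Cpt1a had 0.08. Plin2, the coat protein of lipid droplets, read 10124 units with NSD and 11850 with HSD, for a log2 fold change of 0.34.

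Of 8 genes that encode receptors of osteopontin and GPNMB, 2 were lower and 0 were higher, with a median of 0.015. Itgb5, an integrin chain, fell from 604 to 190 intensity units (−1.56) and Itga4 from 1722 to 1058 (−0.59, just past 1.5-fold), and the other probe of Itga4 had −0.08. Cd44 had 0.30 and Itgav 0.14, while Itgb3 had 0.20 with its brighter probe and 2.20 with the other. Among 13 relatives of the FABP, galectin and tetraspanin members with a value, 5 were lower and 0 were higher, with a median of −0.29. Lgals3bp, a ligand of galectin-3, fell from 3715 to 550.2 intensity units (−2.64, and −2.51 with its other probe). Lgals9 had −1.42, Lgals1 −1.14, Fabp3 −1.14 and Fabp7 −1.10. By the probe that stood for the gene, the tetraspanin genes of the list were within 1.5-fold, with 0.46 for Cd37, 0.37 for Cd53, 0.20 for Cd81, 0.19 for Cd82 and −0.52 for Cd151, whose other probe was past 1.5-fold at −0.74.

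**Figure D4:**
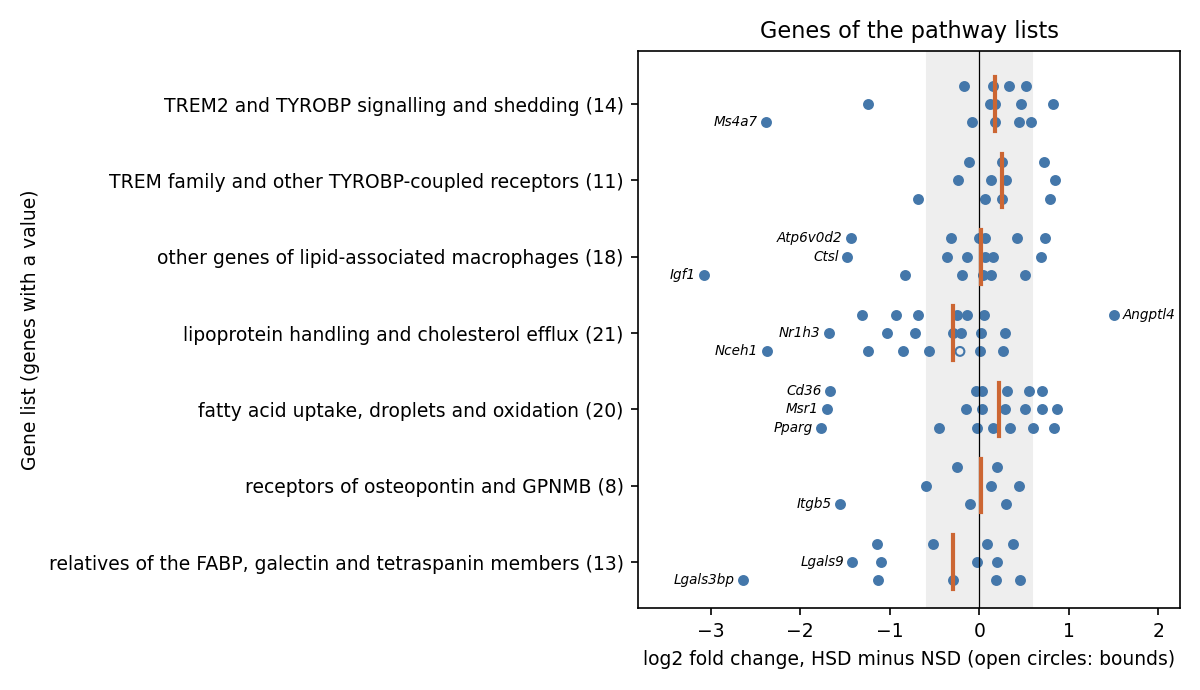
log2 fold change (HSD minus NSD) of each pathway gene with a value, 1 probe per gene, by list, with the list median as a bar and the band below 1.5-fold in grey. The lowest points are Igf1, Lgals3bp, Ms4a7 and Nceh1, and the medians lie between −0.29 and 0.25.

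Markers of cell types were read beside these values. Of 8 macrophage markers, 5 were lower and 0 were higher with HSD, against 10.3% and 9.86% of all genes, and their median log2 fold change was −1.94. Mrc1, the mannose receptor, fell from 134 to 5.49 intensity units (−4.50), Fcgr1, an Fc receptor, from 305 to 21.9 (−3.68), C1qc, a complement subunit, from 52.6 to 5.61 (−3.11) and Mertk, a receptor for apoptotic cells, from 95.9 to 15.4 (−2.52). With HSD, C1qa was not well above background, and it was at least 2.56-fold lower. The HSD signals of Mrc1 and C1qc lay close to 4.39 units, the lowest signal well above background on that array. The sizes of these 2 falls are therefore uncertain. Adgre1, a surface receptor used to mark mouse macrophages, had 6723 and 4252 intensity units (−0.55) and Csf1r had 11343 and 8112 (−0.37), while C1qb had 0.33. Summed over the 8 genes the signal was 18717 for NSD and 12476 for HSD, without scaling. Most of this sum came from Csf1r and Adgre1, which both stayed within 1.5-fold. The part of these markers in the falls of Trem2 and the other members was not tested.

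Of 6 monocyte markers, 1 was lower (Ccr2, −0.78) and 1 was higher (Chil3, 0.65), with summed signals of 88797 and 97712, and Itgam, the gene of CD11b, had 31564 and 31043 intensity units. Neutrophil genes were bright in RNA labelled as monocytic, with 51766 and 51993 for the granule gene Ltf and 19224 and 19703 for Ngp. None of 8 neutrophil markers differed by 1.5-fold. Their median log2 fold change was 0.099, and their sums were 338476 and 330921. All sums in this paragraph are without scaling and rest mostly on the brightest probes. Ly6c2 and Ly6g, which would define the monocytic and granulocytic cells, had no probe that could be named and were not analysed here. Of the adipocyte markers, which matter for Fabp4 and Lpl, Lep and Cfd were not well above background on either array, Plin1 and Adipoq were not in the NSD group, and the sum over 6 genes was 71.1 and 82.4, with Adipoq at least 6.91-fold higher. For endothelial cells, which also express Fabp4, 0 of 5 markers with a value differed by 1.5-fold and the sums were 502 and 518, although a second probe of Kdr had −2.49. Of 5 platelet markers, 3 were lower (Pf4 −2.33, Ppbp −2.23 and Itga2b −0.89), while Gp9 had −0.46 and Gp1bb 0.36. Their sums were 1417 and 283, of which Pf4 alone gave 1332 and 245. Cd9, which platelets also express, was higher. The remaining lists gave 1 higher and 1 lower of 5 for dendritic cells (Clec9a 0.80 and Cd209a with a bound of −1.58), 1 lower of 7 for T and NK cells (Cd3e −1.09), 0 of 5 for B cells, 3 higher of 8 for 4T1 carcinoma cells (Krt18 0.76, Epcam 0.70 and Krt8 0.61), 2 lower and 1 higher of 5 for fibroblasts (Col3a1 −1.09, Dcn −0.80 and Pdgfrb 0.59) and 0 of 3 for erythroid cells. The 3 higher carcinoma markers were dim, with NSD signals of 15.9 intensity units for Krt18, 14.5 for Epcam and 8.68 for Krt8. Krt5, at 46.6 units with NSD, had −0.54, Cdh1 had −0.43 and Krt7 −0.28, all within 1.5-fold. By sign alone, 5 of the 8 carcinoma markers were positive and 3 negative. Their median was 0.12, and their sums were 177 for NSD and 162 for HSD. The part of any of the listed cell types in the members' values was not tested.

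**Figure D5:**
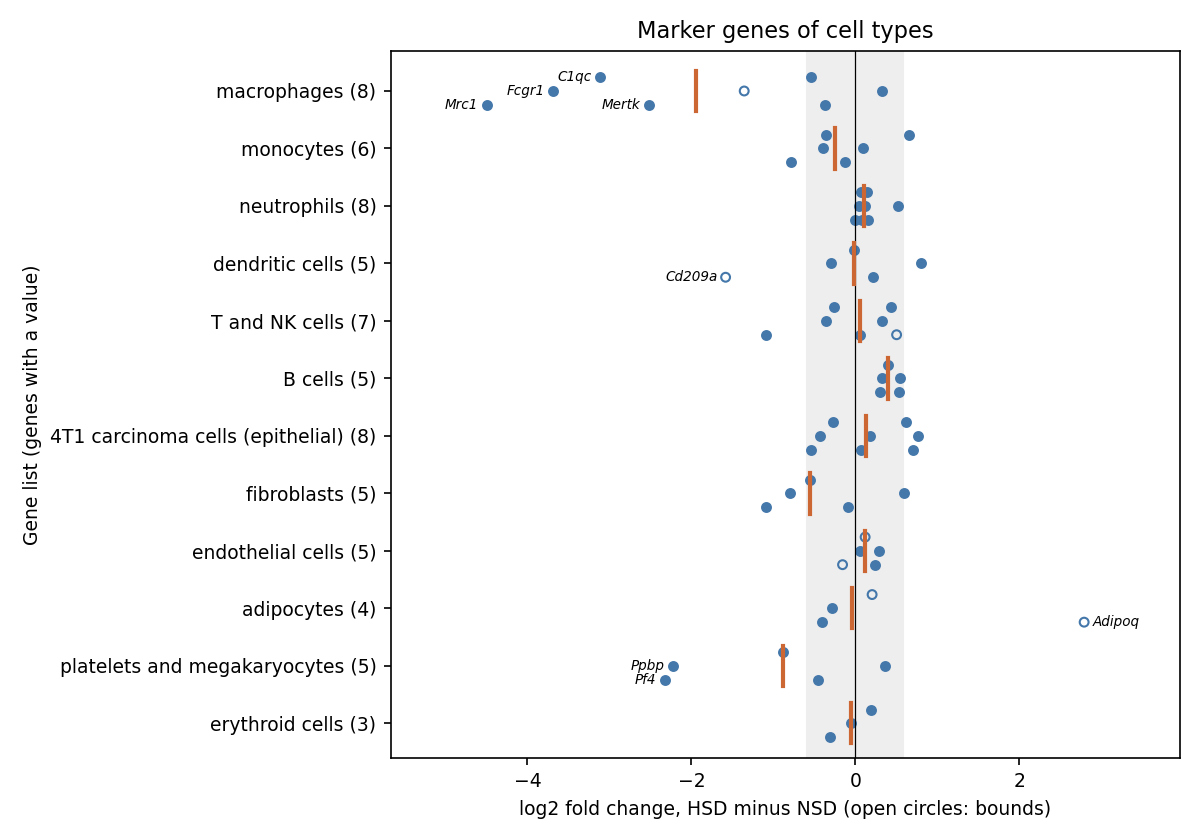
log2 fold change (HSD minus NSD) of each cell type marker with a value, with the median of each list as a bar, the band below 1.5-fold in grey and bounds as open circles. The macrophage markers have a median of −1.94 and run from −4.50 to 0.33, and the 8 neutrophil markers lie within the band.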

How the data were processed

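RNA of tumour M-MDSCs was measured on single-colour Agilent mouse arrays, 1 array per diet, with cells pooled over mice. The authors deposited spot intensities extracted with Feature Extraction 11.0.1.1, corrected for background but not normalised between arrays. The authors also deposited log2 values normalised with the GeneSpring GX software, with settings not given in the sources used here. The columns of these values share nearly the same median (4.61) and 75th percentile (7.89). No sample column of that table was left unused.

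Control spots and outlier spots were left out, log2 signals were averaged over the spots of a probe and scaled by subtracting the array's 75th percentile. A probe was usable when well above background on at least 1 array. Where it was dim on the other, its fold change was a bound, taken against whichever was higher there, its own signal or the lowest one well above background (4.61 intensity units for NSD, 4.39 for HSD). Of several probes the brightest by mean log2 signal stood for the gene. RefSeq (GRCm38.p6) named 27223 of 39413 probes. The array was designed on an older assembly, so gene coordinates are not given. The members and lists were chosen with earlier results of these data known. Genes of the lists were named when past 1.5-fold, up to the 4 largest changes per direction and all where 5 or fewer were called, and other genes were named after their values were seen. No test was run with a single array per diet, and precision is limited by their number. With 2 arrays, no genes of like pattern across samples could be sought. Simulated data with known changes were used to test the counting of calls. Alternatives were normexp background correction (offset 50, on median spot signals), quantile, median, detected-probe 75th percentile and cyclic loess scaling, no scaling, the deposited log2 values, stricter and no filters on dim probes, outlier spots kept, a 2-fold threshold and a median across probes for genes with several. Python 3.11.15 (numpy 2.4.6, pandas 2.3.3, matplotlib 3.10.9) and R 4.3.3 (limma 3.58.1) were used.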

Additional observations from a re-analysis of the deposited data

How the results depend on the processing

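Trem2, Lpl, Fabp4, Fabp5 and Gpnmb were at least 1.5-fold lower under all 10 alternatives that give a log2 fold change, with Trem2 between −2.36 and −2.02. The number of members called higher was 2, and it was 1 with the normexp correction and with scaling on detected probes, and 0 with cyclic loess, without scaling and at 2-fold. The number called lower was 6 or, with the normexp correction and at 2-fold, 5. Over all genes 1682 were lower and 1608 higher. With the normexp correction 656 genes and 924 probes were lower and 622 genes and 967 probes higher. At 2-fold 681 genes and 1039 probes were lower and 428 genes and 793 probes higher, and 1 gene of the pathway lists was higher. Without a filter on dim probes 2903 genes and 6010 probes were higher, and 2212 genes and 3757 probes lower. Of the probes called, 53.4% were higher, against 61.5% without a filter, 43.3% at 2-fold, 42.4% with cyclic loess and 36.5% without scaling, the last of which moved the median of all genes by −0.11 on the log2 scale. Some medians of the pathway lists moved with the processing too. The relatives of the FABP, galectin and tetraspanin members had −0.46 with the normexp correction and 0.026 without a filter, against −0.29. Lipoprotein handling and cholesterol efflux had −0.54 without a filter, against −0.29. The TREM family and other TYROBP-coupled receptors had 0.081 with the normexp correction, against 0.25. Without a filter, Fabp1, Lgals2 and Lgals12, which were not above background on either array, entered the list of relatives. In the lipoprotein list, dim Apoc4 then counted with its plain difference and gave the median itself, instead of a bound of −0.22. The cause of the other shifts was not tested. No paired analysis was possible because each diet has 1 array. No replicate could be left out for the same reason, and dim probes are limited by signal over background.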

Other observations

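The genes that lie next to the members in the RefSeq order were looked at after the values of the members had been seen. The 2 nearest protein-coding genes on each side of a member gave 38 genes, 32 of them with a usable value, of which 5 were at least 1.5-fold lower and 3 at least 1.5-fold higher with HSD, and their median log2 fold change was 0.10. Over all genes 10.3% were lower and 9.86% higher, and the counts of neighbours lie near these shares. Beside Apoe, the apolipoprotein gene Apoc1 fell from 88.3 to 32.9 intensity units (−1.31), while Tomm40, on the other side, had −0.092. Beside Trem2, Treml1 had −0.69 and Treml2 0.25. Between Fabp5 and Fabp4, Pmp2 and Fabp9 were not well above background on either array. Beside Fabp4, Fabp12 read 10.0 units with NSD and 10.3 with HSD. Beside Lpl, Slc18a1 had −1.21 and Ints10 −0.64, while Csgalnact1, one gene further, had 0.64. Zfp704, near Fabp5, had −0.98. Mepe, beside Spp1, had 0.86. Ano2, near Cd9, rose from 18.4 to 59.9 units, a log2 fold change of 1.82 and the largest change among these neighbours.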
